A study of Mus musculus with 8 samples.

Results

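Interferon-stimulated genes are the genes that cells switch on after type I, II or III interferons bind their receptors. The 43 genes described here were taken by symbol from a given list of such genes, out of 49212 genes in each library, and all 43 were found in the count data and passed the low-count filter in every comparison. The rule for the list uses names and no measured value, although earlier results of these data were known when it was drawn up. RNA was sequenced from CD44+ regulatory T (Treg) cells sorted as CD45+CD3+CD4+YFP+ from the spleens and the tumors (TIL, tumor-infiltrating lymphocytes) of C57BL/6 mice in 8 libraries, 2 in each of 4 groups. KO mice were Prdm1fl/flFoxP3YFP-Cre, in which a floxed Prdm1 gene, encoding the transcriptional repressor Blimp1, meets a Cre recombinase made under Foxp3 control. WT mice were FoxP3YFP-Cre, so both genotypes carried the same YFP-Cre allele. All mice bore subcutaneous B16.OVA melanoma, with tumors of at most 1.5 cm3, and had been immunized with NP-OVA in complete and then incomplete Freund's adjuvant. Age, sex and any pooling of mice are not given in the labels. Cre and the sorting marker YFP both follow Foxp3. Deletion thus reports on cells that make or have made Foxp3, whereas sorting took cells that held YFP. Every sample is a bulk of many cells, in which fewer cells making a transcript and less transcript per cell cannot be told apart.

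Type I interferons signal through the IFNAR1 and IFNAR2 chains to the kinases JAK1 and TYK2, which lead to a complex with STAT2 and IRF9 that binds the interferon-stimulated response element (ISRE). Interferon gamma signals through IFNGR1 and IFNGR2, acts on genes with a gamma-activated site (GAS) and induces Irf1 among others. In T cells both pathways change proliferation, survival and the resistance to viruses, and in tumors interferons come from T cells, NK cells and myeloid cells. The 43 genes were sorted by role into transcription factors of the pathway (Stat2, Irf1, Irf7, Irf9), nucleic acid sensors (Ddx58, Ifih1, Dhx58, Zbp1, Eif2ak2), the ISG15 system (Isg15, Usp18), the 3 Ifit genes, 5 OAS genes, 7 other antiviral effectors (Mx1, Mx2, Rsad2, Bst2, Isg20, Cmpk2, Samd9l), 5 IRG GTPases (Irgm1, Irgm2, Igtp, Iigp1, Ifi47), 5 guanylate-binding proteins (Gbp2, Gbp3, Gbp4, Gbp5, Gbp7), 2 PARP genes (Parp9, Parp14) and 5 other interferon-induced genes (Ifi35, Ifi44, Rtp4, Trim30a, Xaf1).

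The promoters hold sequence that the rule did not use. Windows of 300 bases around the start of a transcript, 250 before it and 50 after it, were taken from RefSeq on GRCm38.p6 for the 32 members with an entry; the other 11 (Dhx58, Gbp4, Iigp1, Mx1, Mx2, Oas2, Parp14, Parp9, Rtp4, Usp18, Zbp1) were not analysed for sequence. The core of the ISRE was searched as GAAANNGAAA and the GAS as TTCNNNGAA, on both strands. At least 1 ISRE core lay in the windows of 19 of 32 members (59.4%), against 3.99% of 27025 genes with a window. The GAS letters lay in 11 of 32 (34.4%) against 9.55%, and either motif in 23 of 32 (71.9%) against 12.9%. Windows of all 4 guanylate-binding protein genes and all 3 nucleic acid sensor genes with an entry held an ISRE core, whereas Irf7, Irf9, Oasl1, Oasl2, Cmpk2, Ifi44, Ifi47, Samd9l and Xaf1 held neither motif. Some members have more than 1 window and the cores can overlap one another; a match describes letters and not binding, and its absence says only that these letters are not in the window.

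The 170 bases before the start are printed for 6 members named in the comparisons below, each with a motif in its window. They run 5′ to 3′ in the direction of transcription, with ISRE and GAS letters in capitals and the rest in lower case. Oasl1, also named there, held neither motif and is not printed. Rsad2 and Isg15 are shown as ISRE promoters of antiviral genes, Bst2, Igtp and Irgm2 as promoters with both motifs, and Isg20 as 1 with a GAS alone.
Rsad2 (chr12:26456453-26456622, minus strand): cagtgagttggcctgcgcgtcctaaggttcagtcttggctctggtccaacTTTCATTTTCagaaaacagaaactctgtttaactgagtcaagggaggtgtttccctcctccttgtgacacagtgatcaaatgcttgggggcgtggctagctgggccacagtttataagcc
Isg15 (chr4:156200819-156200988, minus strand): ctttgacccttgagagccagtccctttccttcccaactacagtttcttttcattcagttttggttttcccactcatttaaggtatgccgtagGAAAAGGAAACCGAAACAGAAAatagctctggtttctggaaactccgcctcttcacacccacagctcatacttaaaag
Bst2 (chr8:71537473-71537642, minus strand): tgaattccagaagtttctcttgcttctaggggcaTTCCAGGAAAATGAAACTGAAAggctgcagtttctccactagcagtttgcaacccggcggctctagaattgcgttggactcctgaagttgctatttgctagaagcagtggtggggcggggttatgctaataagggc
Isg20 (chr7:78913254-78913423, plus strand): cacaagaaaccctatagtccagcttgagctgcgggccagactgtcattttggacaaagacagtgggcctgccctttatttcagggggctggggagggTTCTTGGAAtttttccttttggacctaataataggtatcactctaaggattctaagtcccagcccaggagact
Igtp (chr11:58199386-58199555, plus strand): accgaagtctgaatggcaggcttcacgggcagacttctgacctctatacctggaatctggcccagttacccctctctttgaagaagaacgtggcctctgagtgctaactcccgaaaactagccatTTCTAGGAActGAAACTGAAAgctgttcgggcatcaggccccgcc
Irgm2 (chr11:58214807-58214976, plus strand): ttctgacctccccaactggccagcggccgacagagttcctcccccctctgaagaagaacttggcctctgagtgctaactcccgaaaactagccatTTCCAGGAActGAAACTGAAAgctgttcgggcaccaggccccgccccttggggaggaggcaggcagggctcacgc
Rsad2 held 1 ISRE core, 120 bases before the start, which reads on the opposite strand. Isg15 held 3 overlapping cores that begin 78, 72 and 66 bases before the start. In Bst2, 2 overlapping cores (130 and 124 bases before the start) ran into GAS letters that begin 136 bases before it. Isg20 has more than 1 window, and the one printed belongs to its most upstream start. It had GAS letters 73 bases before that start and no ISRE core, and the other windows of Isg20 held neither motif. Igtp and Irgm2, neighbouring GTPase genes, each held a GAS followed by an ISRE core, at 45 and 34 bases before the start in Igtp and at 75 and 64 in Irgm2. In the count annotation the gene models of Igtp (chr11:58199556-58207591) and Irgm2 (chr11:58199618-58222782) overlap, so how reads were split between them is uncertain.

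The libraries held between 27834676 and 43903859 gene counts, and levels are given as CPM, the counts scaled by the TMM method to a common library total. A count of 3, taken as the floor, is 0.0644 to 0.112 CPM, and it covers counting error only. Replicates differed by more than counting noise in every group, with chi-square values of 37.2 to 344 for each degree of freedom. Nothing in the labels says that the 2 libraries of a group came from separate mice, so p-values measure only the spread between these libraries. Prdm1 (chr10:44437177-44528501) was at 108 and 192 CPM in WT TIL, 90.7 and 75.1 in KO TIL, 54.0 and 21.0 in WT spleen and 40.6 and 53.4 in KO spleen. The KO libraries lay below the WT libraries in TIL (log2 fold change, log2FC, -0.86, edgeR adjusted p = 0.554) and overlapped them in spleen. Counts cover all exons of a gene, so a deletion of part of Prdm1 need not lower them.

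The KO TIL libraries stood apart from their Treg label. Foxp3 was at 10.2 and 2.99 CPM in KO TIL, against 25.5 and 60.5 in WT TIL and 43 to 69.6 across the splenic libraries. Cd4, on which the cells were sorted, was at 148 and 66.2 CPM in KO TIL, 807 and 1086 in WT TIL and 384 to 1009 in spleen. Summed levels of Cd4, Cd3e and Trac were 755 and 2040 CPM in KO TIL, 3010 and 4170 in WT TIL and 3270 to 3800 in spleen. KO TIL replicate 1 was thus the lowest library by this sum, while Cd4 alone was lowest in KO TIL replicate 2. Cd8a, a marker of CD8 T cells, was at 217 and 1214 CPM in KO TIL, 71.8 and 9.68 in WT TIL and 2.33 to 5.95 in spleen. Every TIL library also held RNA of melanoma markers, with all 6 of them above the floor and summed levels of 830 to 3200 CPM against 3.69 to 6.74 in spleen. Summed levels of 9 macrophage markers were 15100 and 1760 CPM in KO TIL, 3240 and 556 in WT TIL, 312 and 850 in KO spleen and 467 and 2200 in WT spleen, with all 9 above the floor in every library. The part of such cells in the results below was not tested. For the medians over all members the values without each KO TIL library are also given. For the members that lead a comparison the range over the omissions of 1 library is given.

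Most members had higher levels in TIL than in spleen in both genotypes, and the libraries of 1 group often lay far apart. The median of the 43 genes on the log2(CPM + 0.5) scale was 6.26 and 5.66 in WT spleen, 5.82 and 5.70 in KO spleen, 6.73 and 7.24 in WT TIL and 7.37 and 6.24 in KO TIL. Splenic medians thus ran from 5.66 to 6.26 and those of TIL from 6.24 to 7.37, meeting at WT spleen replicate 1 and KO TIL replicate 2. KO TIL replicate 1 had the highest level of all 8 libraries for 24 members and WT TIL replicate 2 for 15. KO TIL replicate 2 was the lowest of the TIL libraries for 33 members, and WT spleen replicate 2 the lowest of the splenic libraries for 23. Within WT spleen the members longer than 3776 nt, the median length of the list, were at a median log2 ratio of -0.74 in replicate 2 over replicate 1, and the others at -0.30; for all genes the same medians were -0.37 and 0.27. In KO TIL these ratios were -0.87 and -0.99 for members, against -0.13 and 0.10 for all genes.

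**Figure D1:**
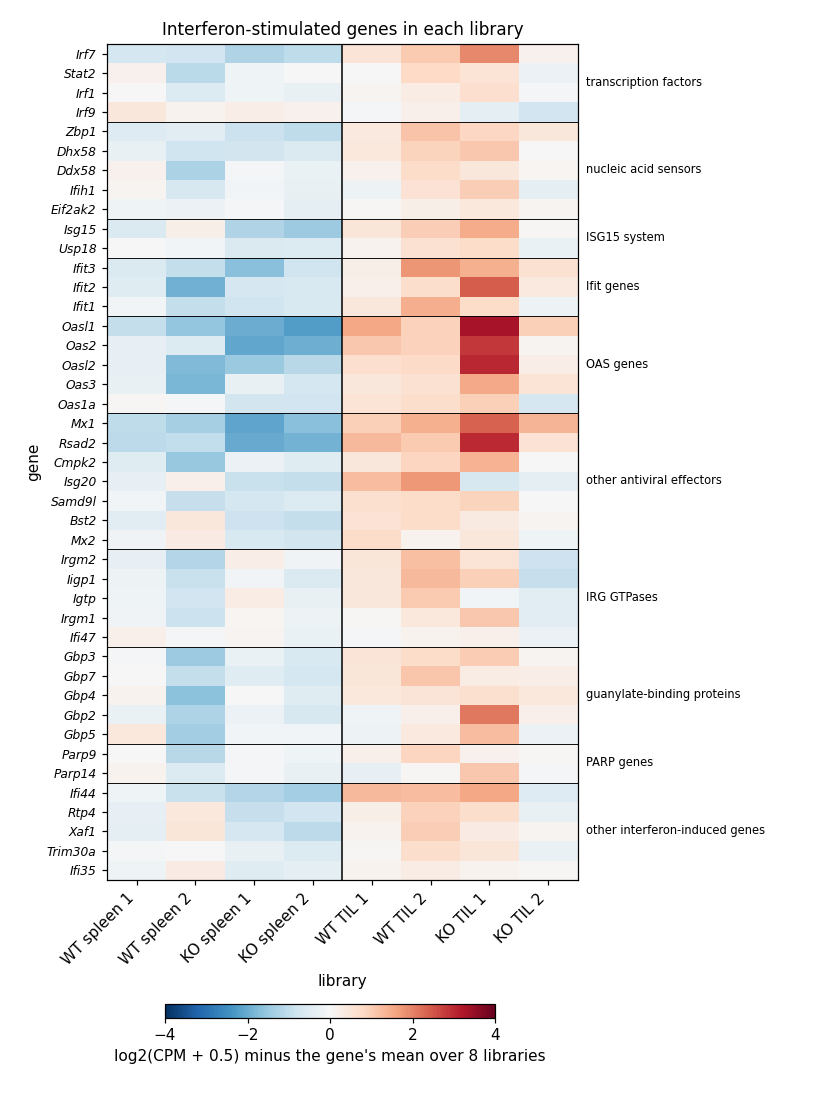
Level of each of the 43 members in each of the 8 libraries, drawn as the difference of its log2(CPM + 0.5) from its own mean over the libraries, with members ordered by role. The columns of KO TIL replicate 1 and WT TIL replicate 2 hold the highest value for 24 and 15 members, and KO TIL replicate 2 is nearer to the splenic columns.

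Divided by gene length, the mean level over the 8 libraries was 221 CPM per kb for Igtp, an interferon-inducible GTPase that acts on vacuoles of intracellular pathogens. Ifi47, of the same family, was at 179.6 CPM per kb, with overlapping levels in all 4 groups (510.5 and 418 CPM in WT spleen, 474 and 364 in KO spleen, 423 and 483 in WT TIL, 509 and 372 in KO TIL). Next came Bst2 (tetherin, which holds budding virus at the membrane) at 138 CPM per kb and Isg15 (a ubiquitin-like modifier) at 116. Gbp2 and Irf1 followed at 87.5 and 79.1 CPM per kb. The lowest were Mx2 at 0.462 and Oas2 at 1.05 CPM per kb. Across the libraries, the median log2(CPM + 0.5) of the OAS genes, a family named for the enzymes that make the activator of RNase L, ran from 3.07 to 7.49, and that of the IRG GTPases from 7.37 to 8.65.

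The comparison of TIL with spleen in WT mice asked how these genes differ between tumor and spleen in Treg cells of control genotype. Of the 43 members, 41 had a log2 fold change above 0 and 2 (Irf9, -0.23, and Ifi47, -0.04) below, with a median of 1.02 against -0.04 over the 16427 genes tested. The TIL libraries were both higher than either splenic library for 32 members (25.1% of genes tested) and both lower for 0 (27% of genes). At an unadjusted p of 0.05, 21 members were higher (10.4% of genes) and 0 lower. Here and below, counts printed without a share of all genes, such as this 0, were not set against a background. With edgeR's quasi-likelihood test at an adjusted p (Benjamini-Hochberg) of 0.05 and a log2FC beyond 1 in either direction, 3 members rose, Rsad2, Oasl1 and Mx1, where 4.1% of all genes were called higher. DESeq2's Wald test called 11 members higher, against 6.25% of genes. As shares of 43, the 3 calls were thus close to the background of their test, and 11 and 21 were above theirs.

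Rsad2 (viperin, chr12:26442753-26456452), which makes a nucleotide that stops viral polymerases, was at 22.6 and 23.2 CPM in WT spleen and 116 and 98.1 in WT TIL. The groups lay far apart relative to their spread, and its log2 fold change was 2.23 (SE 0.43, edgeR adjusted p = 0.0157). Oasl1 (chr5:114923240-114937915), an OAS-like protein known to limit translation of Irf7, was at 6.17 and 3.96 CPM in WT spleen and 37.0 and 24.1 in WT TIL. Its groups did not overlap either, with a log2 fold change of 2.60 (SE 0.54, edgeR adjusted p = 0.0207). Mx1 (chr16:97447035-97462907), a dynamin-like GTPase known for its action on influenza virus, was at 2.66 and 2.03 CPM in WT spleen and 11.96 and 16.5 in WT TIL. Both TIL values were above both splenic values, with a log2 fold change of 2.60 (SE 0.60, edgeR adjusted p = 0.0312). C57BL/6 mice carry a defective Mx1 gene, as do most inbred strains, so its transcript is read here without its protein's function. When any 1 of the 4 libraries was omitted, the log2FC stayed between 2.12 and 2.38 for Rsad2, 2.27 and 2.97 for Oasl1 and 2.39 and 2.83 for Mx1. Over all members the median log2FC ran from 0.88 to 1.56 in the same omissions. With all 8 libraries in 1 fit, Mx1 and Isg20 were called, and Rsad2 and Oasl1 were not.

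By role in WT, values were largest in OAS genes. All 5 OAS genes had log2 fold changes above 0, 4 of them at an unadjusted p of 0.05, with a median log2 fold change of 1.64. The Ifit genes, whose proteins bind viral RNA ends, had a median of 1.55 and 3 of 3 at an unadjusted p of 0.05. Ifit3 went from 37.7 and 29.5 CPM to 67.5 and 193 CPM without overlap (log2FC 1.96, edgeR adjusted p = 0.0663). Other antiviral effectors had a median of 1.55, with 5 of 7 at that unadjusted p and 2 of them called. IRG GTPases had a median of 1.21 with 3 of 5, guanylate-binding proteins 0.97 with 2 of 5, and nucleic acid sensors 0.86 with 2 of 5. The ISG15 system (median 0.65, 0 of 2), transcription factors (0.61, 1 of 4), PARP genes (0.53, 0 of 2) and other interferon-induced genes (0.50, 1 of 5) followed.

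**Figure D2:**
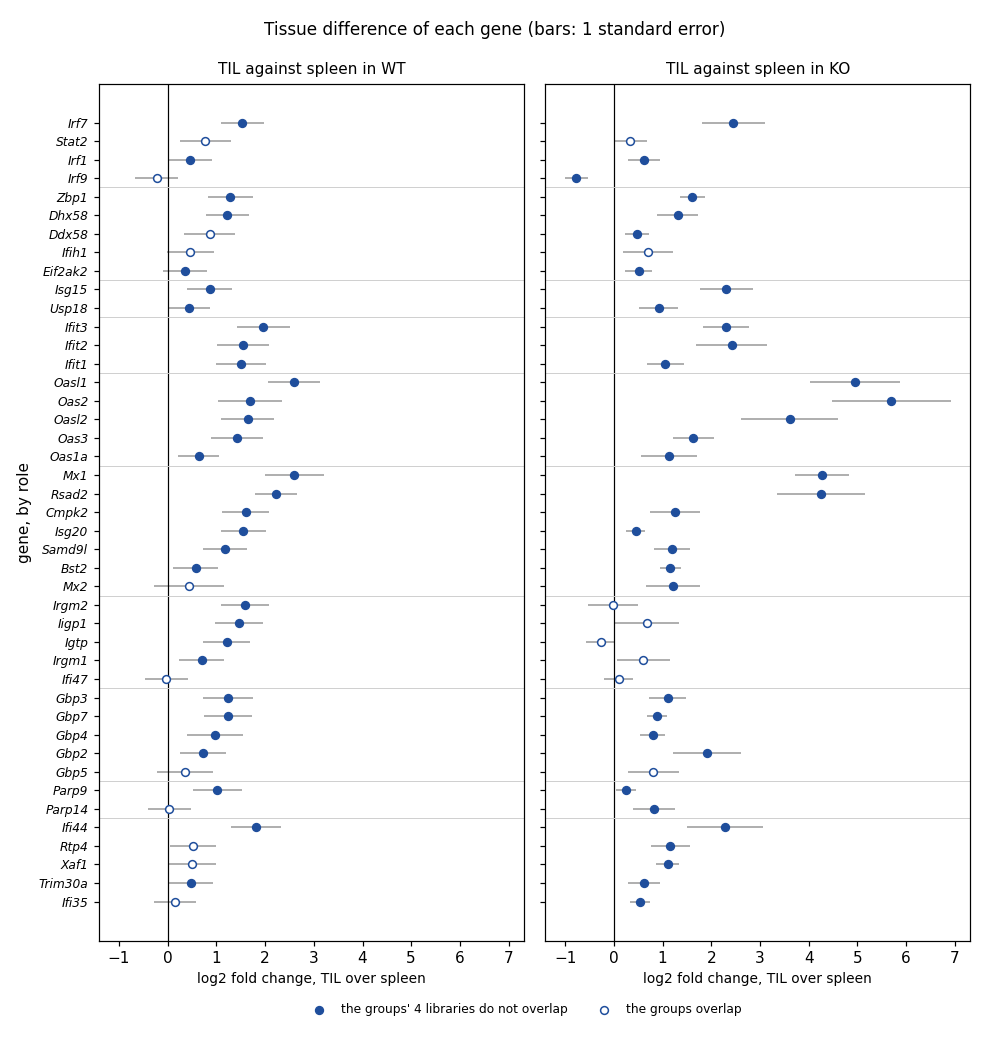
Log2 fold change of each member in TIL against spleen on the horizontal axis, in WT (left) and in KO (right), with genes ordered by role, bars of 1 standard error from edgeR's fit and filled points where the groups do not overlap. Rsad2, Oasl1 and Mx1 were at 2.23, 2.60 and 2.60 in WT and at 4.26, 4.95 and 4.28 in KO, while Igtp and Irgm2 were at 1.21 and 1.59 in WT and at -0.27 and -0.03 in KO.

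The same comparison in KO mice used other libraries throughout. Here 40 members had a log2 fold change above 0 and 3 (Irf9, Igtp and Irgm2) below, with a median of 1.10 against 0.01 over 16933 genes. The TIL libraries were both higher than either splenic library for 34 members (30.6% of genes) and both lower for 1, Irf9 (32.9% of genes). At an unadjusted p of 0.05, 23 members were higher (17.4% of genes) and Irf9 lower. After adjustment edgeR's test called 0 members, where it called 1.35% of genes in either direction, and DESeq2's Wald test called 16 higher (12.6% of genes). As shares of 43, the 34, 23 and 16 exceed those of all genes. The size of the difference depended on which KO TIL library was kept. The median log2 fold change was 0.54 without KO TIL replicate 1 and 1.38 without KO TIL replicate 2. The lone library was assumed each time to vary like the splenic pair.

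Mx1 came nearest to the threshold in KO. It was at 0.988 and 1.52 CPM in KO spleen and 32.1 and 16.0 in KO TIL, with a log2 fold change of 4.28 (SE 0.56, edgeR adjusted p = 0.0501). Zbp1, a sensor of Z-form nucleic acids, was at 88.1 and 78.7 CPM in KO spleen and at 286 and 218 in KO TIL, beside 112 and 118 in WT spleen and 207 and 350.5 in WT TIL (log2FC in KO 1.61, edgeR adjusted p = 0.0571). For both genes the TIL libraries were well above the splenic ones, and with 1 library left out the log2FC ran from 3.67 to 4.72 for Mx1 and from 1.38 to 1.82 for Zbp1. Oasl1 was at 2.75 and 2.28 CPM in KO spleen and at 127 and 24.5 in KO TIL, a log2 fold change of 4.95 with a standard error of 0.93 and an adjusted p of 0.0626 from edgeR's test. Rsad2 was at 11.2 and 12.3 CPM in KO spleen and 371 and 69.9 in KO TIL (log2FC 4.26, edgeR adjusted p = 0.0669). In Oasl1 and Rsad2 the KO TIL libraries were far apart, although both were above every splenic library, and with 1 library left out the log2FC ran from 3.28 to 5.70 and from 2.56 to 5.02. Oas2, which makes the 2′-5′ oligoadenylates that activate RNase L, was at 0.193 and 0.253 CPM in KO spleen, from 9 and 10 counts, and at 20.2 and 2.69 CPM in KO TIL, from 636 and 72 counts. Its log2 fold change of 5.70 (SE 1.22, edgeR adjusted p = 0.0673) rests on these low splenic counts, and ranged from 3.57 to 6.53 with 1 library left out.

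Bst2, with both motifs in its promoter, was at 64.5 and 58.5 CPM in KO spleen and 148 and 123 in KO TIL (log2FC 1.16, edgeR adjusted p = 0.0633), against 84.4 and 156 in WT spleen and 170.3 and 189 in WT TIL. Ifit3 was at 17.4 and 32.3 CPM in KO spleen and 154 and 86.6 in KO TIL (log2FC 2.30, edgeR adjusted p = 0.066). Both genes lay without overlap above spleen in either genotype, and in KO their log2FC ran from 1 to 1.31 and from 1.80 to 2.84 with 1 library left out.

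By role in KO, OAS genes had a median log2 fold change of 3.61 with 4 of 5 at an unadjusted p of 0.05, and Ifit genes 2.30 with 3 of 3. Guanylate-binding proteins had 0.88 with 4 of 5, and other interferon-induced genes 1.10 with 4 of 5. IRG GTPases had a median of 0.09 and 0 of 5. Irf9, the DNA-binding part of the type I complex, was the only member lower at that unadjusted p, at 205 and 191 CPM in KO spleen and 129 and 99.4 in KO TIL (log2FC -0.78, edgeR adjusted p = 0.113, -1 to -0.58 with 1 library left out), beside 236 and 188 in WT spleen. The medians by role and the counts at an unadjusted p in KO were not recomputed without a KO TIL library.

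Taking both genotypes side by side, all 4 TIL libraries lay above all 4 splenic libraries for 19 members (14.6% of 15871 genes), below for 0, and overlapped for 24. Irf7, the factor that amplifies type I interferon, was 1 of the 19, at 88.1 and 84.7 CPM in WT spleen, 62.1 and 70.3 in KO spleen, 206 and 293 in WT TIL and 546 and 160.1 in KO TIL. Its log2 fold change was 1.53 in WT (adjusted p = 0.0759) and 2.45 in KO (adjusted p = 0.0885), both from edgeR's test, and in KO it ran from 1.27 to 3.09 with 1 library left out. The splenic levels were near each other and the TIL levels spread more widely. Stat2, a part of the type I complex, was at 54.8 and 22.8 CPM in WT spleen, 42.4 and 47.4 in KO spleen, 48.1 and 83.7 in WT TIL and 70.7 and 40.9 in KO TIL, and the tissues overlapped in both genotypes. Irf1, the factor that interferon gamma induces, was at 305 and 210.3 CPM in WT spleen, 272 and 247 in KO spleen, 328 and 376 in WT TIL and 486 and 294 in KO TIL. Its TIL libraries were above its splenic libraries but for 1 pair, WT spleen replicate 1 and KO TIL replicate 2.

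**Figure D3:**
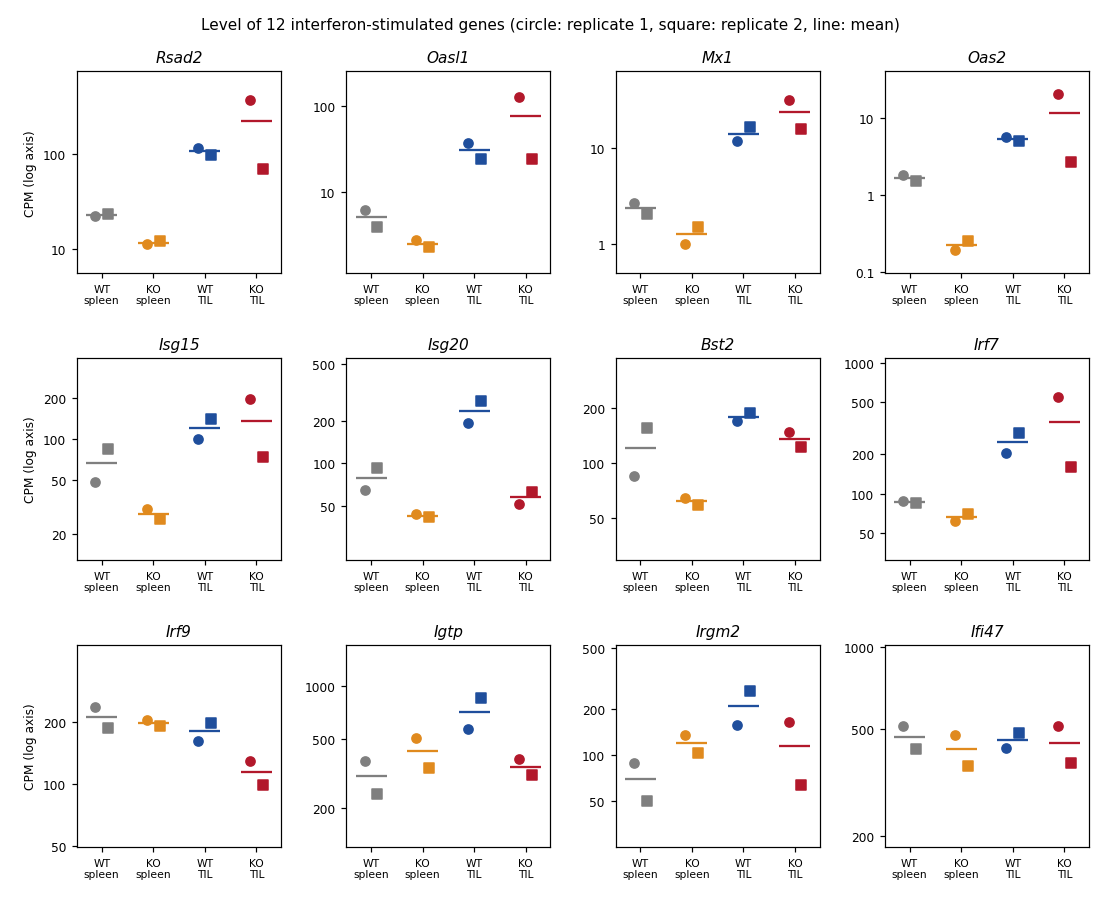
CPM on a log axis of members that lead 1 of the comparisons, 1 point for each library with replicates shown separately and a line at the mean of both. The KO TIL points of Isg20 and Igtp sit under both WT TIL points, and the KO TIL points of Rsad2, Oasl1 and Oas2 lie far apart.

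The comparison of KO with WT in spleen asked whether these genes differ between the genotypes in Treg cells outside the tumor. No member passed adjustment in edgeR's test (0% of 16583 genes) or in DESeq2's (0.441% of genes). At an unadjusted p of 0.05 in edgeR's test, 7 members were lower in KO (1.42% of genes) and 0 higher. Without overlap, 17 were lower (15.7% of genes) and 1, Irgm2, higher (16.4% of genes). The median log2 fold change was -0.17 against -0.02 over all genes, with 16 members above 0 and 27 below. As shares of 43, the 7 and the 17 lower members exceed the shares of all genes. The genotype comparisons share their libraries with the tissue comparisons.

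Oas2 had the largest splenic difference, at 1.82 and 1.50 CPM in WT (61 and 42 counts) and 0.193 and 0.253 in KO (9 and 10 counts). Its log2 fold change was -2.89 (SE 0.68, edgeR unadjusted p = 0.00386, adjusted p = 0.878; DESeq2 adjusted p = 0.163). Isg15 was at 48.0 and 84.8 CPM in WT spleen, 30.3 and 25.6 in KO spleen, 99.8 and 142 in WT TIL and 199 and 73.5 in KO TIL (log2FC in spleen -1.26, edgeR unadjusted p = 0.0155, adjusted p = 0.878). The KO libraries lay below the WT libraries in both genes, and in Isg15 the WT libraries differed from each other by more than the KO libraries did. Rsad2 (22.6 and 23.2 CPM in WT, 11.2 and 12.3 in KO) had a log2 fold change of -0.96. Isg20 was at 65.5 and 93.7 CPM in WT and 43.9 and 41.95 in KO, a log2FC of -0.90. In both the KO libraries were near each other and below both WT libraries. Rtp4, a receptor-transporting chaperone, was at 98.8 and 166 CPM in WT spleen and 65.1 and 71.4 in KO spleen (log2FC -0.96), and at 146 and 235 in WT TIL and 200.3 and 99.2 in KO TIL. Xaf1, an antagonist of the apoptosis inhibitor XIAP, was at 52.6 and 95.0 CPM in WT spleen and 42.1 and 32.6 in KO spleen (log2FC -0.99), and at 74.8 and 135 in WT TIL and 85.6 and 72.8 in KO TIL. With Bst2 (log2FC -0.98) these made up the 7. WT spleen replicate 2 was the highest splenic library for all of the 7 but Oas2, though narrowly for Rsad2. Irgm2 was at 88.8 and 50.02 CPM in WT spleen and 134 and 103 in KO spleen, the 1 member with both KO libraries above both WT libraries (log2FC 0.77, edgeR adjusted p = 0.878).

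The 7 members lower at the unadjusted p stayed below 0 in each of the 4 omissions of a library, as with Oas2 (-3.08 to -2.67) and Isg15 (-1.54 to -0.78). The median over all members leaned on which WT library was kept. Without WT spleen replicate 1, 25 of 43 members lay above 0, with the lone WT library assumed to vary like the KO pair. Without WT spleen replicate 2, 4 of 43 lay above 0. The medians over the 4 omissions ran from -0.37 to 0.20. By role, the medians were lowest in other antiviral effectors (-0.91), the ISG15 system (-0.89), other interferon-induced genes (-0.84) and OAS genes (-0.74), and highest in IRG GTPases (0.39). WT spleen replicate 2 also had the larger sum of macrophage markers, 2200 against 467 CPM, and the lower member median, 5.66 against 6.26.

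The comparison of KO with WT in TIL asked the same question inside the tumor. edgeR's test called 0 members (0% of 15935 genes), and DESeq2's called 1, Isg20, lower (1.13% of genes). At an unadjusted p of 0.05, Isg20 and Igtp were lower (3.53% of genes) and 0 members higher. Without overlap, 7 members were lower (19.4% of genes), Isg20, Igtp, Irf9, Gbp7, Bst2, Parp9 and Ifi35, and 0 higher (18% of genes). The median log2 fold change was -0.07 against 0.04 over all genes. The shares of 43 called lower by DESeq2, lower at the unadjusted p and lower without overlap are near those of all genes, and 0 higher without overlap is under the 18%.

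Isg20 (chr7:78913424-78920396), an exonuclease that degrades single-stranded RNA, was at 192 and 276 CPM in WT TIL and at 52.3 and 63.4 in KO TIL. The WT libraries were both far above the KO libraries, which were at the splenic levels of 41.95 to 93.7 CPM. Its log2 fold change was -2.02 (SE 0.33, edgeR unadjusted p = 0.00143, adjusted p = 0.201), and DESeq2's adjusted p was 0.00103. With 1 library left out the value stayed between -2.26 and -1.74 and was not called by edgeR's test. Igtp was at 566 and 854 CPM in WT TIL and 381 and 309 in KO TIL, without overlap, and at 372 and 241 in WT spleen and 505 and 339.8 in KO spleen. Its log2 fold change was -1.05 (edgeR unadjusted p = 0.0297, adjusted p = 0.438), and -1.32 to -0.73 with 1 library left out. Irf9 was at 163 and 198 CPM in WT TIL and 129 and 99.4 in KO TIL (log2FC -0.67, edgeR adjusted p = 0.571, -0.86 to -0.51 with 1 library left out).

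Several antiviral and GTPase members had higher mean values in KO TIL because of replicate 1. Gbp2, a GTPase that targets vacuoles and bacteria, was at 154 and 198 CPM in WT TIL and 742 and 196 in KO TIL (log2FC 1.41, edgeR adjusted p = 0.582). Ifit2 was at 75.3 and 107 CPM in WT TIL and 350 and 84.7 in KO TIL, and Oasl2 at 45.1 and 47.9 in WT TIL and 233 and 33.8 in KO TIL. In spleen Gbp2 was at 141 and 72.7 CPM in WT and 145 and 111 in KO, Ifit2 at 45.9 and 16.7 in WT and 40.5 and 42.4 in KO, and Oasl2 at 22.1 and 7.88 in WT and 9.77 and 12.6 in KO. In Gbp2, Ifit2 and Oasl2 KO TIL replicate 1 was far above the other TIL libraries and replicate 2 was within or below them. Over all members the median log2 fold change was -0.62 without KO TIL replicate 1 (4 of 43 above 0) and 0.27 without KO TIL replicate 2 (31 of 43 above 0). Oas2, Oasl1 and Rsad2 each turned direction in 1 of the 4 omissions. KO TIL replicate 1 had the highest macrophage sum of all libraries, 15100 CPM, and replicate 2 the highest sum of CD8 T cell markers, 2220 CPM against 406 in replicate 1 and 48.2 and 148 in WT TIL, and their part in the member levels was not tested.

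**Figure D4:**
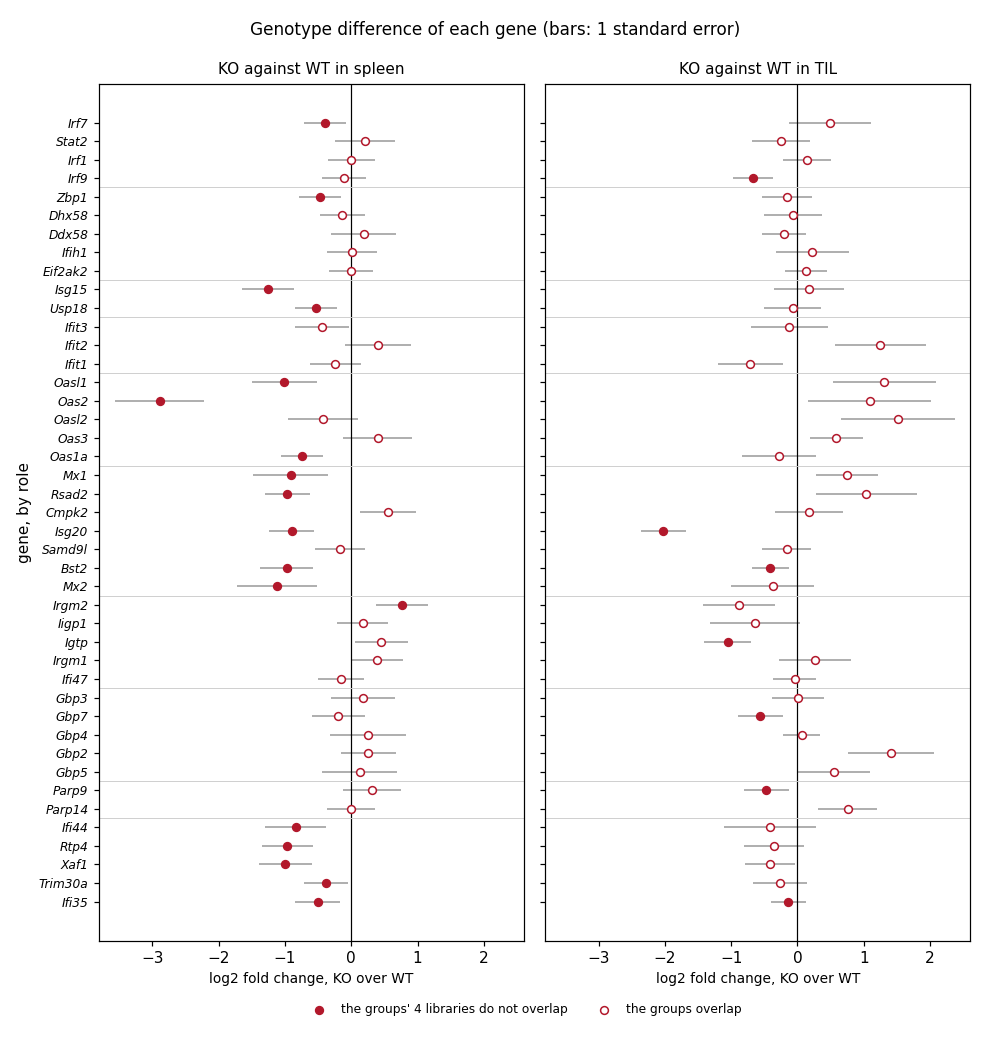
Log2 fold change of each member in KO against WT, in spleen and in TIL, ordered by role, with bars of 1 standard error from edgeR's fit and filled points where the groups do not overlap. No member passed adjustment in edgeR's test in either tissue, while DESeq2's test called Isg20 lower in TIL. Oas2 in spleen (-2.89) and Isg20 in TIL (-2.02) lie farthest below 0.

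Whether the genotype difference itself differed between the tissues was tested as an interaction over the 8 libraries. edgeR's test called 0 members (0% of 17870 genes) and DESeq2's called 1, Oas2, higher (1.32% of genes). At an unadjusted p of 0.05, 3 members were higher (Oas2, Oasl1 and Mx1, 5.08% of genes) and 2 lower (Igtp and Isg20, 2.75% of genes). Oas2 had an interaction of 3.98 (SE 1.19, edgeR adjusted p = 0.423, DESeq2 adjusted p = 0.033), because it was lower in KO than in WT in spleen and its mean was higher in KO than in WT in TIL, where WT was at 5.64 and 5.06 CPM. With 1 library left out its value ran from 1.88 to 4.80. Igtp had -1.50 (unadjusted p = 0.0241) and Irgm2, which overlaps it, -1.65 (unadjusted p = 0.051); both had higher mean levels in KO spleen than in WT spleen and lower ones in KO TIL than in WT TIL. Irgm2 was at 157 and 261 CPM in WT TIL and 164 and 63.3 in KO TIL. Isg20, which was lower in KO in both tissues, had -1.12 (unadjusted p = 0.0426). In edgeR's test, which gave these unadjusted p-values, the adjusted p of all 4 members was 0.423 or more.

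Around the members, 35 further genes of the interferon pathway could be tested, from ligands and receptors to kinases, inhibitors and inducers. In WT, edgeR's test called 3 of them higher in TIL, Ifng, Tlr3 and Irf8, and 0 lower, where 4.1% of all genes were called higher. In KO, Irf8 alone was called higher, where 1.35% of all genes were called in either direction. The genotype comparisons and the interaction called 0 of 35. The ligand Ifng, the type II interferon, was at 10.1 and 9.80 CPM in WT spleen, 9.75 and 3.57 in KO spleen, 59.4 and 47.8 in WT TIL and 51.4 and 368 in KO TIL. Every TIL library was above every splenic library, with a log2 fold change of 2.43 in WT (edgeR adjusted p = 0.0135). KO TIL replicate 2, with the most Ifng, had the lowest median of the members among the TIL libraries, 6.24, and the highest CD8 T cell marker sum. Tlr3, a sensor of double-stranded RNA that leads to interferon, was at 0.778 and 0.677 CPM in WT spleen and 7.36 and 3.51 in WT TIL (log2FC 2.89, edgeR adjusted p = 0.0482).

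Transcripts of type I and type III interferons were few or not detected. Ifnb1 was at 1.43 CPM in KO TIL replicate 1, 0.224 in KO TIL replicate 2 and 0.251 in WT TIL replicate 1, and at 0 in WT TIL replicate 2 and all splenic libraries. Ifna1, Ifna4 and Ifnk reached at most 0.0748, 0.1796 and 0.0635 CPM. Ifna2, Ifna5, Ifne, Ifnl2 and Ifnl3 were at 0 in all 8 libraries, where a count of 0 allows up to 0.112 CPM. Ifnar1, a type I receptor chain, was at 154 and 69.7 CPM in WT spleen, 162 and 132 in KO spleen, 221 and 171 in WT TIL and 259 and 179 in KO TIL, so that every TIL library lay above every splenic one. Ifnar2, its partner, was at 140.3 to 163 CPM in spleen and 83.8 to 171 in TIL and overlapped. Ifngr1 was at 488 to 781 CPM in spleen, 1527 and 2628 in WT TIL and 772 and 1207 in KO TIL, with a log2 fold change of 1.91 in WT (edgeR adjusted p = 0.0538). Ifngr2 was at 24.0 to 35.2 CPM in spleen, 41.1 and 17.1 in WT TIL and 151 and 23.4 in KO TIL, so that KO TIL replicate 1 stood alone. Il10rb, a chain of the interferon lambda receptor, was at 105 to 130.1 CPM in spleen and 86.0 to 159.5 in TIL, and its partner Ifnlr1 was at no more than 0.254 CPM. Irf8, a factor of myeloid and B cells that T cells also express, rose in both genotypes: it was at 53.6 and 71.6 CPM in WT spleen and 274 and 186 in WT TIL (log2FC 1.87, adjusted p = 0.0413), and at 36.5 and 39.0 in KO spleen and 426 and 389 in KO TIL (3.45, adjusted p = 0.0332), from edgeR's test.

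Outside the 43, a list of 51 other interferon-induced genes was tested. Their median log2 fold change in TIL against spleen was 0.60 in WT, with 43 above 0 and 8 below, and 0.52 in KO, with 36 above and 15 below, against 1.02 and 1.10 for the members. In WT, 2 of the 51 were called higher, Ifi205 (5.22) and Phf11d (2.93), and in KO 1, Ifitm1 (3.93), in log2 fold change by edgeR's call, shares near the 4.1% of all genes called higher in WT and the 1.35% called in either direction in KO. Ifi205 was at 0.269 and 0.392 CPM in WT spleen and 23.0 and 1.75 in WT TIL. Its value thus rests on low splenic levels and on TIL libraries far apart. The genotype comparisons called 0 of 51. Over all genes with levels, the genes most like the members' mean standardized profile across the 8 libraries by Pearson's r were Exd1 (0.983), Ogfr (0.976), Gm13464 (0.974), Col5a3 (0.974) and Gm16010 (0.973). Of these, Ogfr alone was above 3 CPM, at 56.0 to 65.1 CPM in spleen and 77.4 to 126 in TIL; the 8 points share libraries and depth, and the correlation is a description.

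**Figure D5:**
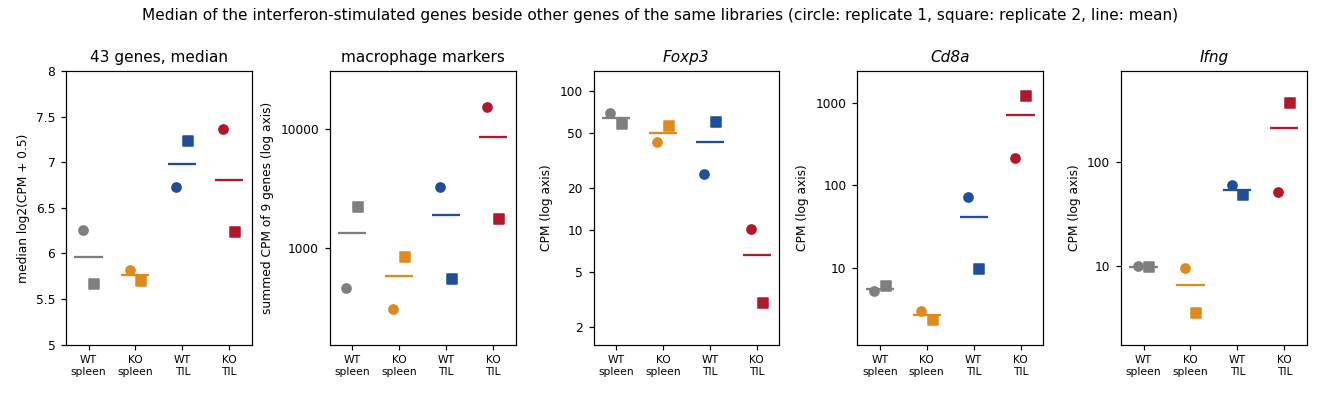
Median log2(CPM + 0.5) of the 43 members in each library, beside the summed CPM of 9 macrophage markers and the CPM of Foxp3, Cd8a and Ifng in the same libraries on log axes, with a line at the mean of each group. The member median is highest in KO TIL replicate 1 (7.37), which has 15100 CPM of macrophage markers, and next in WT TIL replicate 2 (7.24), which has 556 CPM of them.

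The macrophage marker sum and the member median ran together in one pair of replicates and apart in others, and the part of macrophage RNA in the member levels was not tested. In KO TIL the library with more macrophage markers, 15100 against 1760 CPM, had the higher member median, 7.37 against 6.24. In WT TIL the library with fewer macrophage markers, 556 against 3240 CPM, had the higher member median, 7.24 against 6.73. In WT spleen the library with more of them, 2200 against 467 CPM, had the lower member median, 5.66 against 6.26, and in KO spleen the library with more, 850 against 312 CPM, had the lower, 5.70 against 5.82. Treg markers, summed over 4 genes, were at 5020 and 6860 CPM in WT TIL, 600 and 1070 in KO TIL and 895 to 1310 in spleen.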

How the data were processed

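RNA was measured in 8 libraries, 2 in each of 4 groups, made from rRNA-depleted RNA of sorted cells with random-hexamer cDNA. The authors trimmed reads with Trimmomatic 0.36, aligned them to GRCm38 with STAR 2.5.2b and used featureCounts (Subread 1.5.2) for uniquely mapped exonic reads; the raw counts they deposited, 1 file for each library, were the input here. Whether counting used strand is not given in the sources used here, so overlapping and antisense genes, and close family members, are uncertain. A second deposited table, of normalized counts, was not used.

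Computed here, in R 4.3.3: TMM-scaled CPM, and edgeR 4.0.16 quasi-likelihood tests (filterByExpr) on the 4 libraries of each comparison or on all 8 for the interaction, with calls at an adjusted p (Benjamini-Hochberg) of 0.05 and a log2 fold change beyond 1 in either direction. Standard errors were taken as the absolute log2 fold change over the square root of edgeR's F statistic. The tests were tested on simulated data. DESeq2 1.42.0, DESeq2's size factors in edgeR, no filter, a replicate block, no fold change threshold, a fit over all 8 libraries and leaving out each library were alternatives. Groups came from the labels. Members and lists were chosen with earlier results of these data known. Values in every library were given for the transcription factors of the list, the members called in a test (or the 6 with the smallest p) and the 4 most abundant per kb; other members were named after their values were seen. Promoters came from RefSeq on GRCm38.p6 and figures from matplotlib 3.10.9. Not every gene of the pathway list is reported here by name.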

Additional observations from a re-analysis of the deposited data

How the results depend on the processing

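Counts of members called by edgeR's test moved most with the processing, and the cause was not tested. In KO against WT in TIL, 0 became 1 (Isg20) with DESeq2's Wald test, with no filter on low counts, with the replicate block and with the fit over all 8 libraries. In WT, TIL against spleen gave 3, and 11 with DESeq2, 13 with no filter and 7 with the replicate block. In KO, TIL against spleen gave 0, and 16 with DESeq2, 16 with no filter and 9 with the fit over all 8 libraries. The interaction gave 0, then 1 with DESeq2 and 2 with no filter.

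Leaving out 1 library gave 0 to 16 members in KO against WT in spleen (16 without WT spleen replicate 1), 0 to 12 in TIL against spleen in WT and 0 to 28 in KO, and 0 in KO against WT in TIL and in the interaction. The members' median log2 fold change ran from -0.62 to 0.27 in KO against WT in TIL, from -0.37 to 0.20 in spleen, from 0.88 to 1.56 in TIL against spleen in WT and from 0.54 to 1.38 in KO. Groups of 1 library were assumed to vary like the other group.

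The replicate block, which pairs libraries by number, gave 1, 0, 7, 0 and 0 members in KO against WT in TIL and in spleen, TIL against spleen in WT and in KO, and the interaction. Deviations of same-numbered libraries from their group means correlated between -0.26 and 0.29 over 17870 genes, so the numbers were taken as names only. DESeq2's size factors in edgeR and the omission of the fold change threshold left the count called in each of these tests as it was. Depth limits the type I and type III interferon ligands and Oas2, at 9 and 10 counts in KO spleen.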
